A study of Mus musculus with 19 samples.

Results

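The adenylyl cyclase genes Adcy1 to Adcy9 encode the membrane enzymes that make cyclic AMP (cAMP) from ATP. They were found as the rows of the deposited count tables whose Ensembl gene identifiers carry these symbols in the GRCm38 annotation, which gave 9 of 47069 genes. Levels were compared between ipsilateral retinal ganglion cells (iRGCs), whose axons avoid the midline at the optic chiasm, and contralateral retinal ganglion cells (cRGCs), whose axons cross it. RNA-seq was carried out on GFP-positive cells sorted from retinas at E16.5 (embryonic day), with 3 libraries of each population. iRGCs carried Slc6a4-Cre (the Sert-Cre ET33 transgene) and cRGCs carried Pou4f2-Cre, which was inserted into the Brn3b locus. Both populations also carried a Cre-dependent Sun1-GFP reporter at Rosa26, which tags the nuclear envelope of any cell with a history of Cre activity. The labels give the strain C57/DBA F1, pooled male and female embryos and the genotype WT for all 6 libraries. Pou4f2-Cre acts in most RGCs, so the cRGC retinas had their ventrotemporal part, the source of iRGCs, cut away before the sort. Between 28193178 and 33638083 counts per library fell on genes.

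cAMP sets how growth cones read guidance cues, and the calcium of neural activity feeds into it through the cyclases. Adcy1, Adcy3 and Adcy8 encode cyclases that calcium-bound calmodulin stimulates. Adcy5 and Adcy6 encode cyclases that calcium inhibits, and the products of Adcy2, Adcy4 and Adcy7 are stimulated by G protein beta gamma subunits once Gs alpha has bound. Adcy9 encodes the member that responds weakly to the activator forskolin. In the retina, Adcy1 is known for the refinement of RGC axon arbors, the barrelless mutant being the classical example, and Adcy8 for modulating the responses of RGC axons to guidance cues.

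Of the 9 genes, 8 passed the filter on low counts, and 3 of those, Adcy1, Adcy5 and Adcy9, were lower in iRGCs. The test was edgeR's quasi-likelihood test on counts, with the Benjamini-Hochberg adjustment over 15941 genes and a call at an adjusted p under 0.1. No tested member was called higher in iRGCs, and 5 were not called. With cRGC 3 left out, 5 members were called lower, Adcy2 and Adcy6 being added. Lower calls made up 23.1% of all tested genes and higher calls 23.3%. Of the 8 tested members, 3 were called lower with a log2 fold change under -1, against 11.0% of all tested genes. The median log2 fold change was -0.65 over the 8 members and -0.0031 over all tested genes. Levels are given as CPM (counts scaled to library size) with TMM factors, and log2 fold changes are iRGC over cRGC. No source says whether the libraries of a population came from separate litters, so the p-values measure only the spread between these libraries. In sorted bulk samples, fewer cells of a type and less RNA per cell cannot be told apart.

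The sorted populations also differed in markers of retinal cell types, which bears on every comparison that follows. The summed level of 14 RGC markers was 2588, 3611 and 5505 CPM in iRGC libraries 1 to 3 and 14353, 12919 and 15895 CPM in cRGC libraries 1 to 3. Of these markers, 13 were called lower in iRGCs and 1, Thy1, was not called. Their median log2 fold change was -1.94, the range ran from -2.28 to -1.15, and the neurofilament gene Nefm was the most abundant. None of the 14 was at 0 in any library. The list includes Pou4f1 and Isl2, which the paper cites as specific to cRGCs, and Sncg, which it reports as higher there. These genes therefore do not measure RGC content alone. Markers of retinal progenitors went the other way, with 14 of 14 called higher in iRGCs, a median of 2.56 and Ccnd1 the most abundant. Their summed level was 9832, 8461 and 7465 CPM in iRGCs and 851, 2184 and 1390 CPM in cRGCs. Lhx2, a gene of this list, is reported by the paper as highly expressed in iRGCs. All 10 markers of neurogenic precursors, 7 of 10 of amacrine and horizontal cells and 6 of 7 tested markers of photoreceptor precursors were also higher in iRGCs. The other 3 of amacrine and horizontal cells were not called, and the other 1 of photoreceptor precursors was called lower. Hes6, Tfap2b and Otx2 were the most abundant genes of these lists. Their summed levels in libraries 1 to 3 were 1554, 1661 and 1502 CPM in iRGCs against 367, 602 and 531 CPM in cRGCs for neurogenic precursors. The paper describes iRGCs as younger on average than cRGCs at E16.5. Cell makeup and age cannot be told apart in these samples. The part of these marker differences in the results on the cyclases was not tested.

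The bases just before the start of the 3 lower genes are shown because these are the members that were called. They come from the RefSeq promoter table of GRCm38.p6, which held 7 of the 9 members (Adcy6 and Adcy8 were not matched). Each is written 5′ to 3′ on the strand of its gene and ends at the base before the RefSeq start. Adcy1 is chr11:7063183-7063432 on the plus strand, Adcy5 is chr16:35154670-35154863 on the plus strand and Adcy9 is chr16:4420499-4420748 on the minus strand. The Adcy5 stretch was shortened to 194 bases to leave out an exon that RefSeq places upstream. Capitals mark matches on either strand to GGGCGG (the GC box, CCGCCC on the other strand), TGACG (the core of the cAMP response element) and CAGCAGG (a core of motifs that Zic proteins bind).
Adcy1: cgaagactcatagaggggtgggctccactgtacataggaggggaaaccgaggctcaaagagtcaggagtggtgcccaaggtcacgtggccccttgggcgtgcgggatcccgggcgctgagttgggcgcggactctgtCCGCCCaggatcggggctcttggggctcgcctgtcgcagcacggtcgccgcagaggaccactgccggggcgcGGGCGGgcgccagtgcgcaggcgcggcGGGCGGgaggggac
Adcy5: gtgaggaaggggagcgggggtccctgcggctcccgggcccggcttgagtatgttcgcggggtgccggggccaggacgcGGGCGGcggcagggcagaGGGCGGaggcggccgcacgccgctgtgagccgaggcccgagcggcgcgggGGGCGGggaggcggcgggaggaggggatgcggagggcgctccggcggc
Adcy9: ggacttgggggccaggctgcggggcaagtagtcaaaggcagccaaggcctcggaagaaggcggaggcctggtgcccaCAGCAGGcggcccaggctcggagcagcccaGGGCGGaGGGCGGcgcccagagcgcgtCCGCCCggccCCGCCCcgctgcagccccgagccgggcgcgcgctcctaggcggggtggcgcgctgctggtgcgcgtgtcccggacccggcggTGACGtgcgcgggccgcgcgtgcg
The Adcy1 stretch holds 3 GC boxes, the Adcy5 stretch 3 and the Adcy9 stretch 4, and 32.7% of 32817 RefSeq promoters hold at least 1 in their 250 bases before the start. Adcy9 also holds 1 TGACG, 24 bases before its start, and 1 CAGCAGG, 173 bases before it. The shares of all promoters with these letters were 17.7% and 8.45%. The full cAMP response element TGACGTCA (in 1.55% of promoters, each also counted for TGACG) and ATAATTA, a core that Pou4f factors bind (2.50%), are not in the 250 bases of any of the 3 genes. Over these 250 bases the GC content was 71.2% for Adcy1, 78.0% for Adcy5 and 78.8% for Adcy9, against a median of 52.4% over all promoters. These features were not limited to the lower genes, as the window of Adcy2, which was not called, had a GC content of 73.2% with 2 GC boxes, and 1 of the 2 windows of Adcy3 had 68.8% with 1.

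Adcy1 (ENSMUSG00000020431, chr11:7063489-7178506 on GRCm38, plus strand) had the largest difference of the 8 tested members. Its level was 79.1, 82.3 and 156 CPM in the iRGC libraries and 525, 432 and 253 CPM in the cRGC libraries. The 3 iRGC libraries all lay below the 3 cRGC libraries, although iRGC 3 and cRGC 3 came closest to each other. The means were 106 ± 43.2 CPM (SD, n = 3) and 403 ± 138 CPM (SD, n = 3), a 3.82-fold higher level in cRGCs. The log2 fold change was -1.93 with a standard error of 0.32, a 95% interval of -2.67 to -1.20 and an adjusted p of 0.00163 (edgeR, Benjamini-Hochberg). Of all tested genes, 28.2% had every iRGC library below every cRGC library.

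Adcy8 (ENSMUSG00000022376, chr15:64697084-64922296, minus strand), the calmodulin-stimulated cyclase known from the guidance of RGC axons, was counted at a low level. It had 32, 24 and 36 counts in iRGCs and 56, 17 and 53 counts in cRGCs. In CPM these were 1.03, 0.742 and 1.14 in iRGCs and 2.15, 0.587 and 1.71 in cRGCs. The lowest library was cRGC 2 and the highest cRGC 1, so the populations overlapped. The log2 fold change was -0.61 with a 95% interval of -2.46 to 1.24 and an adjusted p of 0.601 (edgeR), an interval that includes differences of either sign. Without cRGC 1 the log2 fold change was -0.25 (adjusted p of 0.894, edgeR), and without cRGC 2 it was -0.98 (0.474). Adcy3 (ENSMUSG00000020654, chr12:4133103-4213525, plus strand), the cyclase of olfactory cilia, had 12.1, 12.9 and 14.4 CPM in iRGCs and 18.4, 19.9 and 15.3 CPM in cRGCs. The populations did not overlap, and the difference missed the threshold with a log2 fold change of -0.45, a 95% interval of -0.89 to -0.0035 and an adjusted p of 0.104 (edgeR). Over 14 alternative fits the log2 fold change ran from -0.54 to -0.25, with no call. The value of -0.25 came from scaling by library totals alone (adjusted p of 0.351, edgeR). On the opposite strand, Cenpo covers 22.1% of the exon bases of Adcy3. The strand setting of the counting is not given in the sources used here, so reads there cannot be assigned with certainty. Cenpo, a centromere protein gene, had 16.3, 26.4 and 23.6 CPM in iRGCs and 18.4, 12.4 and 14.1 CPM in cRGCs.

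The 2 calmodulin-stimulated genes with reported roles in retinal axons were also set against each other per kilobase of merged exon. Adcy8 was 2.03%, 1.41% and 1.14% of the Adcy1 level in iRGCs and 0.635%, 0.215% and 1.05% in cRGCs. All 3 iRGC values were above the cRGC values. The mean log2 ratio differed by 1.50, and an exact two-sided permutation test over the 3 and 3 libraries gave p = 0.1, the smallest p that this design allows. Without cRGC 2 the difference was 0.86, and each ratio rests on the 17 to 56 counts of Adcy8.

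**Figure D1:**
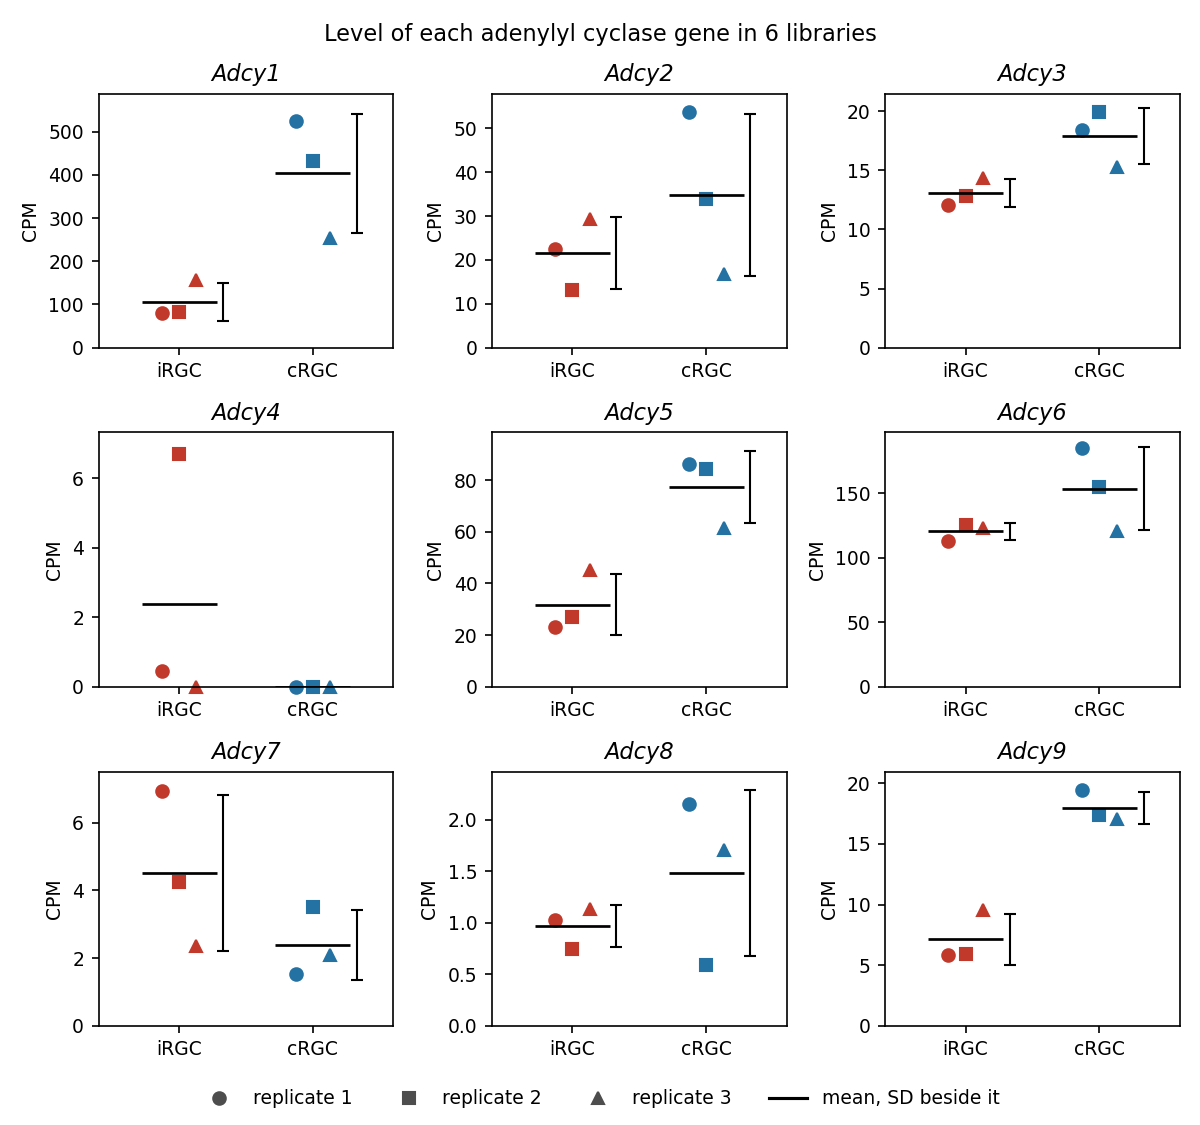
Level of each adenylyl cyclase gene in CPM (linear axes from 0, scaled separately) in 3 iRGC and 3 cRGC libraries, with circles, squares and triangles for replicates 1, 2 and 3, a line at the mean and the SD beside it (not drawn for Adcy4). Adcy1, Adcy5 and Adcy9 show 2 separate groups with cRGCs above, while Adcy4 reaches 6.71 CPM in iRGC 2 and is at 0 in all cRGC libraries.

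The 2 genes of calcium-inhibited cyclases differed in their results. Adcy5 (ENSMUSG00000022840, chr16:35154877-35305738, plus strand), best known as the main cyclase of the striatum, had 23.0, 27.0 and 45.3 CPM in iRGCs. In cRGCs it had 86.4, 84.2 and 61.5 CPM. The populations did not overlap, with iRGC 3 the highest iRGC library and cRGC 3 the lowest cRGC library, as for Adcy1. Its log2 fold change was -1.28 with a standard error of 0.25 and an adjusted p of 0.00379 (edgeR), a 2.43-fold higher level in cRGCs. Adcy6 (ENSMUSG00000022994, chr15:98589973-98610076, minus strand), a widely expressed cyclase, had 113, 125 and 123 CPM in iRGCs and 185, 155 and 121 CPM in cRGCs. Here cRGC 3 lay among the iRGC libraries. The log2 fold change was -0.35 with a 95% interval of -0.70 to -0.00079 and an adjusted p of 0.106 (edgeR), which narrowly missed the threshold. Without cRGC 3 it was -0.49 with an adjusted p of 0.0214, and the DESeq2 test on all libraries gave 0.0866. It was -0.20 without cRGC 1 with an adjusted p of 0.334, and -0.15 with scaling by library totals alone with an adjusted p of 0.480 (edgeR).

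Adcy9 (ENSMUSG00000005580, chr16:4287529-4420498, minus strand) varied least within cRGCs, relative to its mean, of the 3 lower members. It had 5.85, 5.93 and 9.59 CPM in iRGCs and 19.5, 17.4 and 17.1 CPM in cRGCs. No libraries of the populations overlapped. The log2 fold change was -1.33 with a standard error of 0.26 and an adjusted p of 0.00333 (edgeR), a 2.52-fold higher level in cRGCs. Each of the 3 lower members stayed lower with a call in all 14 alternative fits.

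Among the genes of cyclases stimulated by beta gamma subunits, none was called. Adcy2 (ENSMUSG00000021536, chr13:68620043-68999541, minus strand), a brain cyclase, had 22.4, 13.1 and 29.4 CPM in iRGCs and 53.7, 33.8 and 16.9 CPM in cRGCs. The populations overlapped, since cRGC 3 lay between iRGC 2 and iRGC 1. The log2 fold change was -0.68 with a 95% interval of -1.62 to 0.25 and an adjusted p of 0.229 (edgeR), and 1 library moved it in either direction. It was -1.01 without cRGC 3 (adjusted p of 0.0553, edgeR), -0.24 without cRGC 1 (0.704) and -0.42 without iRGC 2 (0.498). Adcy7 (ENSMUSG00000031659, chr8:88272403-88329962, plus strand), a cyclase known from blood and immune cells, had 6.95, 4.23 and 2.36 CPM in iRGCs and 1.54, 3.52 and 2.10 CPM in cRGCs. It was the one tested member with a positive log2 fold change, 0.92, but the populations overlapped and its 95% interval ran from -0.35 to 2.19 with an adjusted p of 0.233 (edgeR). Without iRGC 1 the log2 fold change was 0.46 (adjusted p of 0.561, edgeR), and without cRGC 2 it was 1.33 (0.179). Microglia markers were higher in iRGCs for 4 of 8 tested genes, with a summed level of 21.0, 27.8 and 18.9 CPM in iRGCs and 1.19, 4.59 and 2.55 CPM in cRGCs, Csf1r being the most abundant. Their part in the Adcy7 values was not tested.

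Adcy4 (ENSMUSG00000022220, chr14:55769057-55784095, minus strand), known from endothelial cells, was detected in 2 iRGC libraries alone. It had 14, 217 and 0 counts in iRGCs, or 0.450, 6.71 and 0 CPM, and 0 counts in each cRGC library. The filter left it out of the test. Pooled over the iRGC libraries its level was 2.43 CPM, at least 69.6-fold higher than the floor of 3 counts over the cRGC group, and without iRGC 2 at least 6.39-fold higher. Floors cover counting error only. Of the 12 endothelial markers listed, 8 had the same order over the iRGC libraries (iRGC 2 highest, then iRGC 1, then iRGC 3), and Kdr, Cldn5, Emcn and Egfl7 did not. The share of all genes with this order was not counted, and Cdh5, Tie1 and Pecam1, given next, are among the 8. Cdh5, the endothelial cadherin, had 15.2, 81.3 and 0.158 CPM in iRGCs and 0 in every cRGC library. The receptor gene Tie1 had 2.70, 44.1 and 0.0631 CPM in iRGCs and 0 in every cRGC library, and Pecam1 had 9.65, 53.0 and 0.284 CPM against 0, 0.725 and 0 CPM. All 7 endothelial markers tested, of 12 listed, were called higher in iRGCs, and Cdh5, Tie1 and Sox17 were at 0 in all cRGC libraries. The summed level of the 12 was 471, 728 and 436 CPM in iRGCs and 89.2, 109 and 72.0 CPM in cRGCs. Its most abundant gene Kdr, which retinal progenitors also express, had 366, 320 and 418 CPM in iRGCs. The part of endothelial cells in the Adcy4 counts was not tested.

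**Figure D2:**
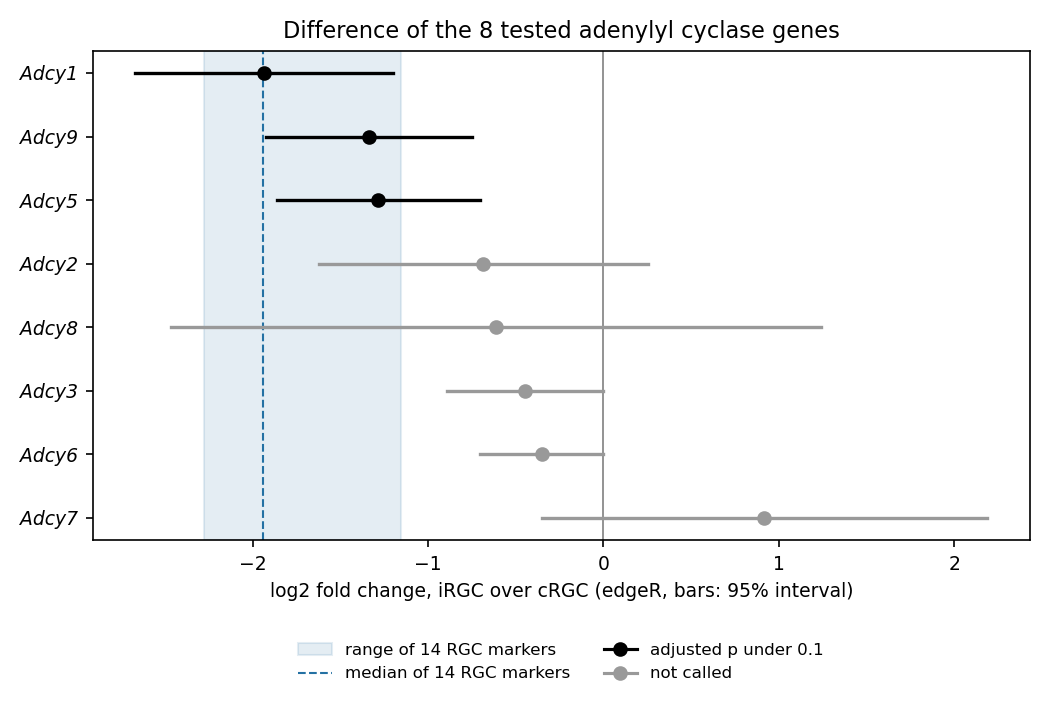
Log2 fold change of iRGCs over cRGCs for the 8 tested adenylyl cyclase genes, with points for the edgeR estimate, bars for the 95% interval and black for genes with an adjusted p under 0.1. The shaded band and dashed line give the range (-2.28 to -1.15) and the median (-1.94) of 14 RGC markers, and Adcy1 lies close to the dashed line. Adcy5 and Adcy9 lie in the band only through its upper edge, which is Pou4f2 alone (the other 13 markers end at -1.73), and the 5 other estimates lie to its right.

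The log2 fold change of Adcy1 fell within the range of the RGC markers. Those of Adcy5 and Adcy9 did so only through Pou4f2 (-1.15), the locus that carries the Cre insertion in the cRGC embryos. The other 13 markers ran from -2.28 to -1.73, and the values of all tested members but Adcy1 were above that range. The level of each member was therefore also expressed as a percentage of the summed CPM of the RGC markers in the same library, a measure chosen after the values had been seen and given without a test. The sum is weighted towards abundant markers such as Nefl, Nefm, Gap43 and Stmn2. It also includes Pou4f1, Isl2 and Sncg, which the paper describes as cRGC genes. Adcy1 was 3.06%, 2.28% and 2.83% of the RGC marker sum in iRGCs and 3.66%, 3.34% and 1.59% in cRGCs. On this measure the populations overlapped, with means of 2.72% and 2.87%, and the overlap rested on cRGC 3, since the other cRGC libraries lay above all iRGC libraries. Adcy5 was 0.890%, 0.749% and 0.823% in iRGCs and 0.602%, 0.652% and 0.387% in cRGCs. Adcy9 was 0.226%, 0.164% and 0.174% in iRGCs and 0.136%, 0.135% and 0.107% in cRGCs. For both genes every iRGC library lay above every cRGC library. Adcy6 was 4.37%, 3.46% and 2.24% in iRGCs and 1.29%, 1.20% and 0.760% in cRGCs, again without overlap. Fold changes smaller in size than that of the marker sum raise the iRGC percentages relative to cRGCs. The marker sum itself was at most 5505 CPM in iRGCs and at least 12919 CPM in cRGCs. A gene with equal CPM in all libraries would therefore also have every iRGC percentage above every cRGC percentage. Adcy3, Adcy7 and Adcy8 did not overlap on this measure either. Adcy2 overlapped, with 0.866%, 0.363% and 0.534% in iRGCs and 0.374%, 0.262% and 0.106% in cRGCs. Against the geometric mean of the markers, which gives each marker equal weight, a gene with equal CPM in all libraries would read 1.91, and the log2 difference was -0.03 for Adcy1, 0.59 for Adcy5, 0.60 for Adcy9 and 1.58 for Adcy6. It was 1.31 for Adcy2, 1.48 for Adcy3, 1.56 for Adcy8 and 2.66 for Adcy7. Whether the RGC markers measure the share of RGCs or their level per cell was not tested.

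**Figure D3:**
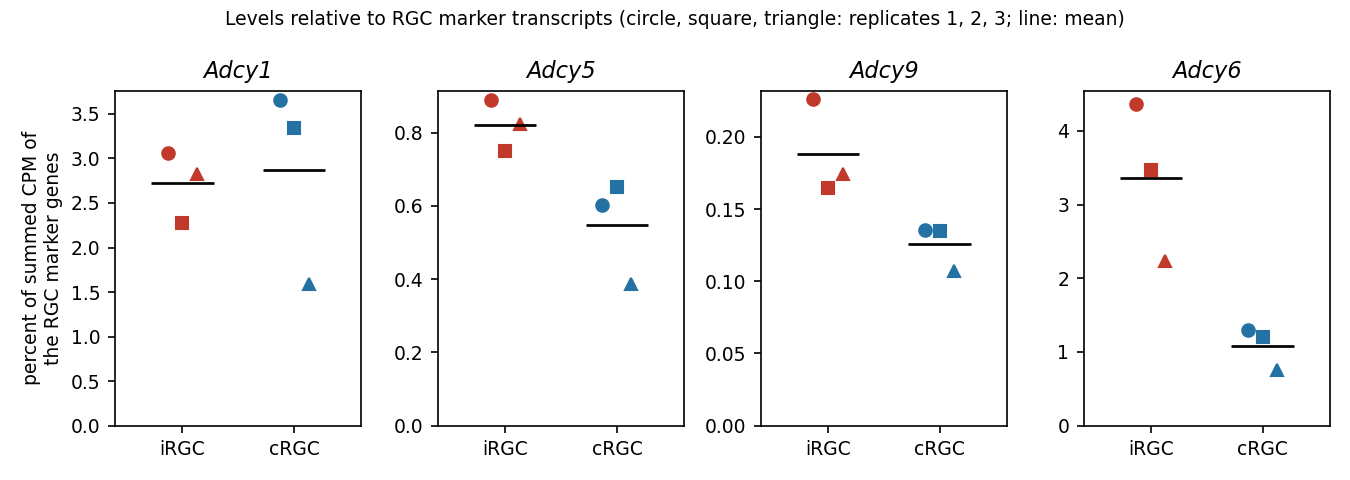
Levels of Adcy1, Adcy5, Adcy9 and Adcy6 as a percentage of the summed CPM of 14 RGC markers in the same library (linear axes from 0), with a circle, square and triangle for replicates 1, 2 and 3 and a line at the mean. The Adcy1 values of iRGCs (2.28% to 3.06%) lie inside the range of the cRGC values (1.59% to 3.66%), whereas all 3 iRGC libraries lie above all 3 cRGC libraries for the other genes.

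Levels per kilobase of merged exon let the members be ranked within each population. In iRGCs Adcy6 was first with 17.8 ± 0.957 CPM per kb (SD, n = 3), followed by Adcy1 with 8.44 ± 3.45, Adcy2 with 5.14 ± 1.94 and Adcy5 with 4.43 ± 1.65 CPM per kb. Adcy3 had 2.10 ± 0.188, Adcy9 1.37 ± 0.410, Adcy7 0.671 ± 0.342 and Adcy8 0.119 ± 0.0250 CPM per kb in iRGCs, and Adcy4 had 0.511 CPM per kb, nearly all of it from iRGC 2. The libraries of Adcy1 and Adcy2, of Adcy2 and Adcy5, of Adcy7 and Adcy4 and of Adcy4 and Adcy8 overlapped, so the order of these neighbours was not beyond their spread. In cRGCs Adcy1 came first with 32.2 ± 11.0 CPM per kb and Adcy6 second with 22.6 ± 4.77, and their libraries overlapped. Adcy5 had 10.8 ± 1.92 and Adcy2 8.26 ± 4.37 CPM per kb in cRGCs and also overlapped. They were followed by Adcy9 with 3.46 ± 0.249, Adcy3 with 2.86 ± 0.379, Adcy7 with 0.354 ± 0.152 and Adcy8 with 0.182 ± 0.0990 CPM per kb, the last pair with overlap. Among all tested genes ranked by level per kb over the 6 libraries, Adcy1 was at percentile 83.8, Adcy6 at 83.6, Adcy5 at 58.7, Adcy2 at 55.2 and Adcy8 at 2.91.

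The makeup of the cyclase transcripts, as each gene's share of the summed level per kb, also differed between populations. Adcy1 made up 17.6%, 17.6% and 25.6% of the sum in iRGCs and 41.4%, 41.0% and 35.6% in cRGCs. Adcy6 made up 46.5%, 49.5% and 37.4% in iRGCs and 27.0%, 27.1% and 31.3% in cRGCs. For both genes the populations did not overlap, with Adcy1 the larger share in cRGC libraries and Adcy6 the larger share in iRGC libraries. By class, calmodulin-stimulated members took 25.8% ± 4.18 (SD, n = 3) in iRGCs and 43.2% ± 2.60 in cRGCs. Calcium-inhibited members took 55.2% ± 4.59 and 42.1% ± 3.87, members stimulated by beta gamma subunits 15.7% ± 2.11 and 10.2% ± 2.61, and Adcy9 3.34% ± 0.405 and 4.48% ± 1.13. Shares of one sum depend on each other, and they were not tested. The summed level was 35.8, 37.2 and 48.5 CPM per kb in iRGCs and 101, 84.2 and 56.8 CPM per kb in cRGCs. Without Adcy1 it was 29.5, 30.7 and 36.1 CPM per kb against 59.3, 49.7 and 36.6 CPM per kb, with iRGC 3 and cRGC 3 almost equal.

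**Figure D4:**
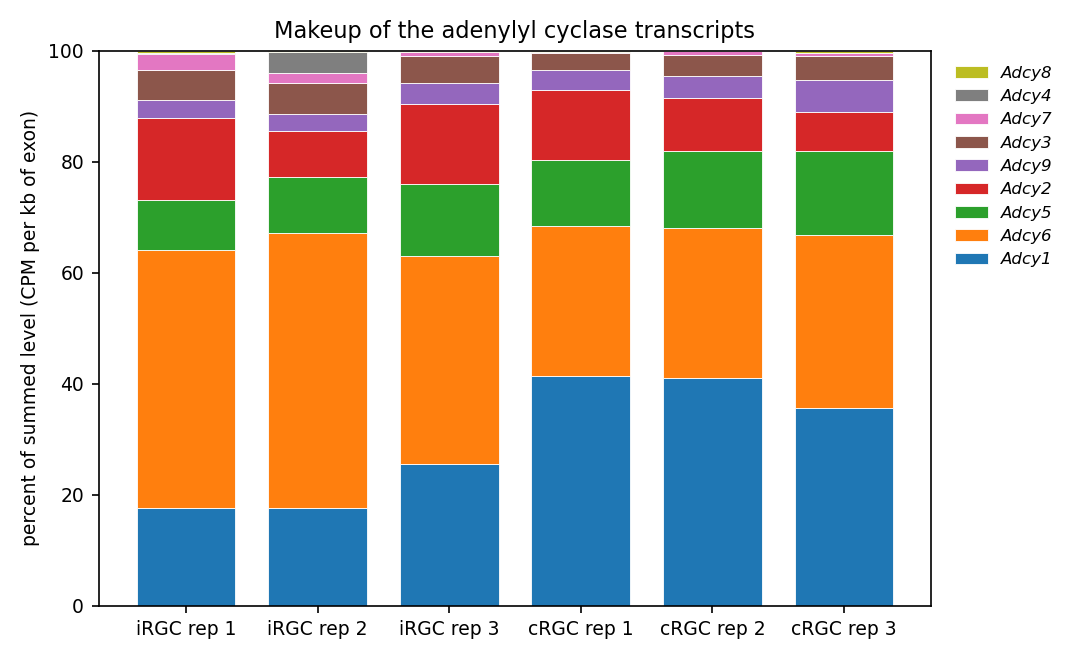
Share of each adenylyl cyclase gene in the summed level (percent, CPM per kb of merged exon) in each of the 6 libraries. The Adcy1 share lies between 17.6% and 25.6% in iRGCs and between 35.6% and 41.4% in cRGCs, and the Adcy6 share is the larger of the pair in the 3 iRGC libraries.

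The other genes of cAMP signalling were taken from lists of 127 genes in 14 groups, of which 126 were matched and 98 were tested. In iRGCs 50 of them were called lower, 15 higher and 33 not called (edgeR, adjusted p under 0.1), and the median log2 fold change was -0.63. Among all tested genes 23.1% were lower and 23.3% higher, the background for the count of each list that follows. The cyclase genes are not in these lists. Upstream of the cyclases, both genes of stimulatory alpha subunits were lower, Gnal with a log2 fold change of -2.16 and Gnas with -0.52. Gnas shares 22.0% of its exon bases with Gm20721, and its reads there are uncertain. Of 5 tested genes for inhibitory subunits, Gnao1 (-1.78), Gnaz (-1.21) and Gnai1 (-1.14) were lower, Gnai2 was higher (0.87) and Gnai3 was not called (0.13). The calmodulin genes Calm3 (-1.09) and Calm2 (-0.45) were lower.

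Among receptors that raise cAMP, 2 of 10 tested genes were lower, 1 was higher and 7 were not called, with a median of 0.32. Adcyap1r1, the receptor of the peptide PACAP, had 13.1, 9.37 and 14.0 CPM in iRGCs and 39.3, 36.5 and 30.7 CPM in cRGCs, with an adjusted p of 0.000531 (edgeR). The gene of its ligand, Adcyap1, had 4.21, 12.3 and 16.1 CPM in iRGCs and 57.9, 44.2 and 62.8 CPM in cRGCs, with a log2 fold change of -2.34 and an adjusted p of 0.00208 (edgeR). Both genes were thus lower in every iRGC library. Adcyap1 was the one tested gene of 3 listed peptide ligands. Crhr1, the receptor of corticotropin-releasing hormone, was lower (-3.05) and the dopamine receptor gene Drd1 higher (1.42) in iRGCs.

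Receptors that lower cAMP included 14 lower, 3 higher and 5 uncalled genes of 22 tested, with a median of -1.58. Among the lower genes the largest differences were -3.06 for the somatostatin receptor gene Sstr1, -2.73 for the adenosine receptor gene Adora1 and -2.27 for the glutamate receptor gene Grm2. Adora1 shares 20.1% of its exon bases with Mybph. The 3 higher genes were S1pr1 (3.18), a sphingosine phosphate receptor gene, Sstr2 (2.75) and Grm7 (1.74). Sstr2 had 24.8, 38.3 and 35.9 CPM in iRGCs and 2.61, 7.80 and 4.29 CPM in cRGCs, so that the 2 tested somatostatin receptor genes differed in opposite directions. S1pr1 had 27.9, 24.6 and 17.6 CPM in iRGCs and 2.08, 2.59 and 3.03 CPM in cRGCs.

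Of the phosphodiesterase genes, whose products break cAMP down, 5 of 14 tested were lower and 3 higher, with a median of -0.32. The share of higher calls was close to the 23.3% of all tested genes. Pde4a (-1.43), Pde1b (-1.17) and Pde4b (-1.03) were the largest lower differences, and Pde1b encodes an enzyme that calmodulin activates. Pde8b (1.99), Pde8a (1.69) and Pde3b (1.08) were higher in iRGCs. Pde3b had 90.3, 64.5 and 69.0 CPM in iRGCs and 32.4, 35.7 and 37.8 CPM in cRGCs, with no overlap. For Pde8a iRGC 2 alone had 13.9 CPM, and the other libraries of both populations had between 1.29 and 4.05 CPM.

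Among the genes that act on cAMP once it is made, all 6 subunit genes of protein kinase A were lower in iRGCs, with a median of -0.68. Prkar1b (-1.98), Prkar2b (-1.18) and Prkar1a (-0.69), which encode regulatory subunits, had the largest differences. Of 3 genes of protein kinase A inhibitors, Pkia was lower (-1.39) and Pkib (1.56) and Pkig (0.55) were higher. Of 10 A-kinase anchoring protein genes, 7 were lower, with -1.85 for Akap6, -1.82 for Akap7 and -1.41 for Akap12, and 3 were not called. Of the 3 genes for exchange factors that cAMP or related signals activate, Rapgef3 (Epac1) was higher with 4.30 and Rapgef2 and Rapgef4 were not called (0.22 and -0.79). Rapgef3 had 2.73, 13.1 and 0.441 CPM in iRGCs and 0.308, 0.345 and 0.161 CPM in cRGCs, the order over the iRGC libraries that Cdh5 had.

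Channels gated by cyclic nucleotides had 3 lower genes, Hcn2 (-2.05), Hcn3 (-1.58) and Hcn4 (-0.72), and 1 higher gene, the cone channel gene Cnga3 (2.18), of 6 tested. Hcn3 shares 17.1% of its exon bases with Pklr. Of 7 genes for CREB factors and their coactivators, Atf1 (1.56), Crem (0.83) and Creb1 (0.33) were higher and Crtc1 was lower (-0.60). Of 6 tested genes for other cyclases, which make cyclic GMP, Gucy1a1 (-0.50) and Npr2 (-0.48) were lower and the 4 others were not called. The soluble adenylyl cyclase Adcy10, in the same list, had 4 counts in 1 cRGC library and 0 in the other libraries.

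**Figure D5:**
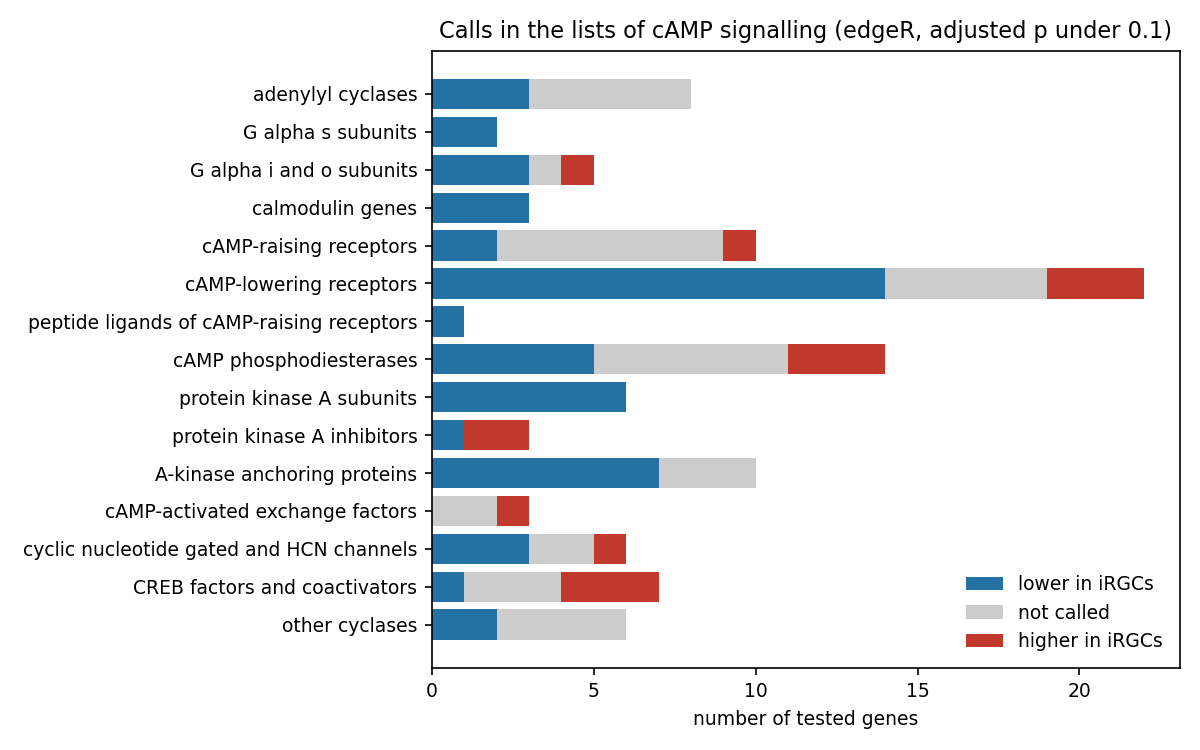
Number of tested genes called lower in iRGCs, not called and called higher in iRGCs (edgeR, adjusted p under 0.1) for the adenylyl cyclases and 14 lists of other genes of cAMP signalling. Receptors that lower cAMP have the most lower calls (14 of 22), and all 6 genes of protein kinase A subunits were lower.

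The genes whose level followed that of Adcy1 most closely over the 6 libraries were sought among 10101 protein-coding genes with a mean of at least 10 CPM. They were the potassium channel subunit gene Kcnab2 (Pearson r = 0.999 on log2 CPM, n = 6), the splicing regulator gene Rbfox1 (0.998), Runx1t1 (0.997), the gephyrin gene Gphn (0.996) and the calcium channel subunit gene Cacnb4 (0.996). For Adcy8 they were Zfp335 (0.980), Nupl2 (0.980), Crtc2 (0.968), Impact (0.963) and Dgcr2 (0.951). These are descriptions over libraries that share 2 populations, and the Adcy8 values rest on few counts.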

How the data were processed

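Gene counts from E16.5 retina were used for 6 RNA-seq libraries, 3 of sorted iRGCs and 3 of sorted cRGCs. ATAC-seq samples were not analysed here. The authors aligned reads to mm10 with HISAT2 2.1.0, counted them on Ensembl genes of GRCm38 with HTSeq 0.11.1 and deposited raw counts per gene, 1 table per library. Library totals of 28193178 to 33638083 counts bound the precision of low genes such as Adcy8. The tallies of HTSeq below the gene rows were dropped before library sizes were taken, and reads on no gene were 12.3% to 23.2% of uniquely placed reads. GENCODE M21 (GRCm38) gave symbols, coordinates and merged exon lengths.

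The populations were compared with edgeR 4.0.16 in R 4.3.3 (filterByExpr, TMM, quasi-likelihood test, no block, Benjamini-Hochberg, call at an adjusted p under 0.1, biological coefficient of variation 36.3%). The study's 10% false discovery rate set this threshold. DESeq2 1.42.0, limma 3.58.1, other scalings and filters, a replicate block and leaving out each library were alternatives, and the code was tested on simulated data. The floor for a gene at 0 was 3 counts over the group, and log2 ratios used a pseudocount of 0.5 counts. All 9 members are named, with up to 3 genes per pathway list and direction (largest absolute log2 fold change, mean of at least 1 CPM), lists of 5 or fewer genes in full, and the most abundant gene of each marker list. Items that fell under this rule but are withheld are not reported here. Any other gene in the text was picked with its values in view. The members and all gene lists were chosen with earlier results of these data known.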

Additional observations from a re-analysis of the deposited data

How the results depend on the processing

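Over the 14 alternative fits, every tested adenylyl cyclase kept the sign of its log2 fold change, and Adcy1, Adcy5 and Adcy9 were called lower in each fit. Adcy1 ranged from -2.33 to -1.72, Adcy5 from -1.64 to -1.09 and Adcy9 from -1.62 to -1.14. The number of members called lower was 3 to 5 when 1 library was left out, with 5 without cRGC 3 (Adcy2 and Adcy6 added), and it was 4 by DESeq2, with no filter and with a minimum of 10 counts, where Adcy6 was added with an adjusted p of 0.0866, 0.0913 and 0.0895. The number called higher was 1 with no filter on low counts (Adcy4, adjusted p of 0.00717) and 0 to 1 when 1 library was left out, the gene being Adcy4 without iRGC 3 or any 1 of the cRGC libraries. Adcy4 enters these fits only through the iRGC libraries where it is high, so these calls are no support for a difference. Scaling by library totals alone moved the median of all genes by 0.21, and Adcy1 was at -1.74 there. With the replicate number as a block, Adcy1 was at -1.96 with an adjusted p of 0.00983 (edgeR) and 3 members were lower and 0 higher. Same-numbered libraries did not deviate together (r of -0.012, -0.024 and -0.055). This cannot exclude a shared litter or sort day, and no source states a pairing. The log2 difference of the Adcy8 to Adcy1 ratio, iRGC minus cRGC, was 0.86 to 2.01 when 1 library was left out. The shares of Adcy1 and Adcy6 moved by less than 1 SD with the exons of the longest transcript. Adcy8 and Adcy4 rest on few counts at this depth, and the strand setting of the counting limits Adcy3.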

Other observations

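Outside the lists of cAMP signalling and of neurons, the remaining marker lists gave these values. Mural cell markers were called higher in iRGCs for 3 of 5 tested genes, with a summed level of 132, 275 and 108 CPM in iRGCs and 21.3, 31.8 and 22.5 CPM in cRGCs, Notch3 being the most abundant. Erythroid markers were higher for 4 of 5 tested genes, with 12.2, 94.7 and 15.7 CPM in iRGCs and 0, 5.49 and 0.290 CPM in cRGCs. Hbb-bs was the most abundant of them. In iRGC 2 the mural and erythroid sums and Adcy4 were each the highest of the 6 libraries. Pigment epithelium markers were higher for 1 of 5 tested genes, close to the 23.3% called higher among all tested genes. Their summed level was 5.37, 10.7 and 10.1 CPM in iRGCs and 2.23, 5.11 and 3.58 CPM in cRGCs, Rlbp1 being the most abundant. The 1 tested marker of astrocytes of the optic stalk, Aldoc, was not called. Within cRGCs, library 3 had the lowest level of Adcy1, Adcy2, Adcy3, Adcy5, Adcy6 and Adcy9, while its summed level of RGC markers, 15895 CPM, was the highest of the 6 libraries. Single markers did not all follow that sum, and in cRGC libraries 1 to 3 Pou4f1 had 861, 672 and 431 CPM, Isl2 had 130, 111 and 45.7 CPM and Thy1 had 46.5, 39.1 and 3.19 CPM, each lowest in library 3.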
